A study of Homo sapiens with 6 samples.

Results

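Mitosis and spindle genes were followed in 786-O cells adapted to copper. These are 46 genes chosen by name for their roles in cell division: mitotic entry, spindle building, chromosome attachment, the spindle checkpoint, anaphase and cytokinesis. The choice was made with earlier results of these data known. All 46 were found among the 25987 genes with a symbol in the deposited count table, and 45 were among the 12944 genes tested. NUSAP1, a microtubule-bundling spindle protein, had too few counts to be tested.

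786-O is a standard human cell line of clear cell kidney cancer, known to carry no working VHL, and its genotype is labelled wild type. The copper group held 3 RNA libraries from cells grown long term in medium whose serum had been bound to CuSO4. The dose is given as 30 uM for the study as a whole, and sample by sample as 30, 31 and 32 uM for copper replicates 1, 2 and 3, which were kept as 1 group. The control group held 3 libraries from cells whose serum was handled alike without copper. The authors number the copper cultures 6, 7 and 9 and the control cultures 1, 2 and 4, and nothing in the labels says whether they were adapted separately, so p-values measure the spread between these libraries. All 6 come from 1 cell line.

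Dividing cells make most of these proteins anew in each cycle. Their genes are switched on together shortly before mitosis, by the MuvB complex with MYBL2 and FOXM1 and by the factor NF-Y, and are held off in resting cells by MuvB in the DREAM complex. CDK1 with cyclins A and B drives entry, Aurora and Polo kinases build the spindle and correct attachments, and the checkpoint holds back the anaphase-promoting complex until every chromosome is attached. As a group these transcripts are widely used as a measure of how much of a culture is dividing.

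MuvB binds a promoter element called the cell cycle genes homology region (CHR), whose usual letters are TTTGAA, and NF-Y binds CCAAT. The 200 bases before the RefSeq start (assembly GRCh38.p14) are shown for the 6 genes with the highest mean CPM among those with a CHR upstream of the start, because these letters are what many of the genes have in common. Capitals mark TTTGAA and CCAAT on either strand, the reverse strand reading TTCAAA and ATTGG.
MKI67 (chr10:128126424-128126623, minus strand): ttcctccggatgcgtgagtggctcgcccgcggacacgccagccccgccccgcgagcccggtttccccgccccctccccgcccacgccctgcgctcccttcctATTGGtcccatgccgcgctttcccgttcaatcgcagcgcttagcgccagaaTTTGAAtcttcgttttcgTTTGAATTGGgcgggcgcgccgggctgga
TOP2A (chr17:40417897-40418096, minus strand): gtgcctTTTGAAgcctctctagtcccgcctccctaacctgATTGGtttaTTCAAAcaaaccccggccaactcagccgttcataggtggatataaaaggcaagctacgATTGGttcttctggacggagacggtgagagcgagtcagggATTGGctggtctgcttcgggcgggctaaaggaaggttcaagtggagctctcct
ANLN (chr7:36389662-36389861, plus strand): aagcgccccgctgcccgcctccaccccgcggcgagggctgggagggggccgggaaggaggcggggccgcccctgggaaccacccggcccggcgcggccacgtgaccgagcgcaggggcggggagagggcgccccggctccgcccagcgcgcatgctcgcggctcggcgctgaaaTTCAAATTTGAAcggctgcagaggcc
ASPM (chr1:197146670-197146869, minus strand): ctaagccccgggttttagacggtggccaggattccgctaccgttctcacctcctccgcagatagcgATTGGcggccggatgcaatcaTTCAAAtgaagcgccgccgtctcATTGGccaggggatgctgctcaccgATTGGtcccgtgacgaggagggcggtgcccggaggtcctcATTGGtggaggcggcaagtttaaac
ECT2 (chr3:172750526-172750725, plus strand): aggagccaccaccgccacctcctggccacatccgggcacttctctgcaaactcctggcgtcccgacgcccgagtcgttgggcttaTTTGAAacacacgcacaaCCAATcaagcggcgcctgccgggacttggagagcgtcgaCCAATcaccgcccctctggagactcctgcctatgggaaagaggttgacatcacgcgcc
CDK1 (chr10:60778131-60778330, plus strand): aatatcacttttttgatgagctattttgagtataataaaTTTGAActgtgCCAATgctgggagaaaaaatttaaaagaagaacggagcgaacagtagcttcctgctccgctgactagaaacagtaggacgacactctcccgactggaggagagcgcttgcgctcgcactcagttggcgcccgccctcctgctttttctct
In MKI67 the capitals nearest the start hold both motifs, overlapping by 1 base. A further 3 promoters were added after their values were seen. They set a cyclin promoter without TTTGAA (CCNA2) beside 2 promoters with it (CCNB2 and PLK1). Only these exact letters were searched, so a CHR with other letters would go unmarked, in CCNA2 as elsewhere.
CCNA2 (chr4:121823884-121824083, minus strand): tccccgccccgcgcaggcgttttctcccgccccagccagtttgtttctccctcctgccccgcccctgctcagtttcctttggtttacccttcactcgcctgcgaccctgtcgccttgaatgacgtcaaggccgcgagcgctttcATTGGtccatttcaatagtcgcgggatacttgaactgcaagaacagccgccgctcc
CCNB2 (chr15:59104946-59105145, plus strand): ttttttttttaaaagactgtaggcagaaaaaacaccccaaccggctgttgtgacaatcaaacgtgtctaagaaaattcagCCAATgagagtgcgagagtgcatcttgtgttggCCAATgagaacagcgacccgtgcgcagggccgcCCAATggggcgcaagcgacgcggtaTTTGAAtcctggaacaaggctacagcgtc
PLK1 (chr16:23678689-23678888, plus strand): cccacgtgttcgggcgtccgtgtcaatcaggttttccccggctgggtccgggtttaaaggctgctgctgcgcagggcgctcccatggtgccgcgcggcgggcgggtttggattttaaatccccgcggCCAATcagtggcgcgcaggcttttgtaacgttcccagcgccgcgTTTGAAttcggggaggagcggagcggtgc

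RefSeq promoter windows (250 bases before to 50 after a start) were matched by Entrez gene number for 38 of the 46 genes. No window was matched for AURKA, BIRC5, BUB3, FOXM1, RACGAP1, TPX2, TTK and UBE2C. TTTGAA stood on either strand in 28 of the 38 genes (73.7%), against 18.2% of all 27305 genes with a window. CCAAT stood in 31 of 38 (81.6%), against 39.7% of all genes. Both motifs were found in 24 of 38 (63.2%), against 7.26% of all. The 10 genes without TTTGAA were AURKB, BUB1, CCNA2, CCNB1, CDCA5, CENPE, KIF20A, KIF2C, PTTG1 and SPC24, and 3 of them (CDCA5, CENPE and KIF2C) also lacked CCAAT. Of the 28 genes with TTTGAA, 23 had a copy within 50 bases of the most upstream start. Over all matches in the most upstream windows, the median first base was -28 for TTTGAA and -74 for CCAAT, but the order differed between genes. Among the printed sequences, a TTTGAA copy stood upstream of a CCAAT copy in MKI67, TOP2A, ASPM, ECT2 and CDK1. The other CDK1 window had CCAAT at -78 and -46 and TTTGAA at -69, -13 and 10. In all, 20 genes had 2 or more copies of CCAAT, up to 5 in HMMR, which encodes a spindle and hyaluronan-binding protein. A match of letters is a description and does not show that a factor binds.

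**Figure D1:**
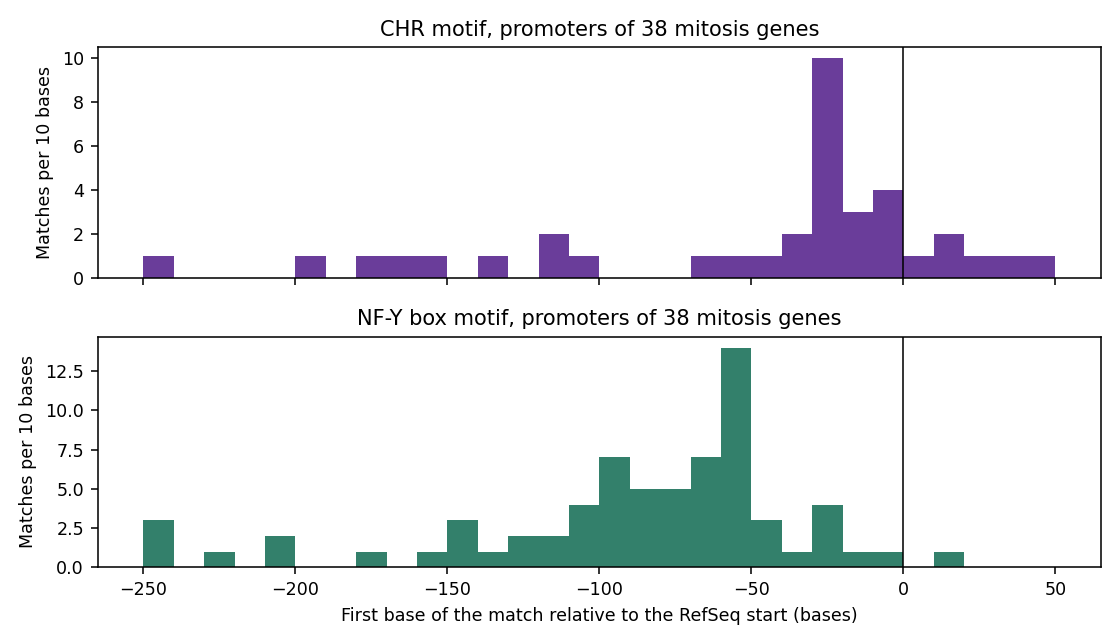
Position of CHR and NF-Y box letters (either strand) in the most upstream RefSeq promoter window of 38 genes. The x axis is the distance of the first base of a match from the start, in bases, and the y axis counts matches per 10 bases. CHR matches were most frequent from -30 to -21 (10 matches) and NF-Y box matches from -60 to -51 (14 matches).

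The libraries held 16301772, 17821462 and 18189469 counts in copper and 25079913, 20718778 and 19219090 in control. Of 9 renal carcinoma markers 8 were tested, with summed levels of 4484 to 5409 CPM (counts scaled by library size) in copper and 4858 to 5108 in control. VIM alone, at 2763 to 3788 CPM, was the largest part of each sum. PAX8 was at 123 to 147 CPM and PAX2 at 5.63 to 9.01 CPM. CA9, a hypoxia-induced marker of clear cell carcinoma, had 0 to 2 counts in each library. Of 8 markers of other cell types only COL1A1 was tested, and their sums were 2.99 to 5.07 CPM in copper and 4.42 to 9.17 in control. Replicate 3 stood apart within both groups. Its counts differed from those of its group mates with a chi-square of 57.8 and 61.1 per degree of freedom in copper and 20.6 and 19.8 in control, against 5.55 and 5.04 for replicates 1 and 2. Results are therefore also given without it.

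Transcripts of the division genes were less abundant in every copper library than in any control library when summed. The 46 genes made up 0.974%, 0.949% and 0.835% of counts in copper replicates 1, 2 and 3, and 1.07%, 1.02% and 1.06% in the controls. Their summed levels were 9684, 9482 and 8199 CPM in copper and 10812, 10404 and 10681 CPM in control. The lowest sum was that of copper replicate 3. In whole cultures, fewer dividing cells and less RNA per dividing cell cannot be told apart.

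The median log2 fold change of the 45 tested genes, copper against control, was -0.20, a level 13.0% lower, and that of all tested genes was 0.0052. The genes ran from -0.46 (ASPM and CENPF) to 0.14 (PRC1), and these were -0.22, -0.27 and 0.01 with replicates 1 and 2 only. Of the 45, 40 had a log2 fold change below 0, against 48.6% of all genes tested, and 39 to 41 had one under the other scalings. The 3 copper values lay wholly below the 3 control values in 22 genes, against 5.35% of all genes, and wholly above them in 0, against 5.45%. In 33 genes copper was lower in each of the 3 same-numbered comparisons (17.0% of all genes), and 1 gene, CKS2, was higher in all 3 (17.7% of all genes).

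**Figure D2:**
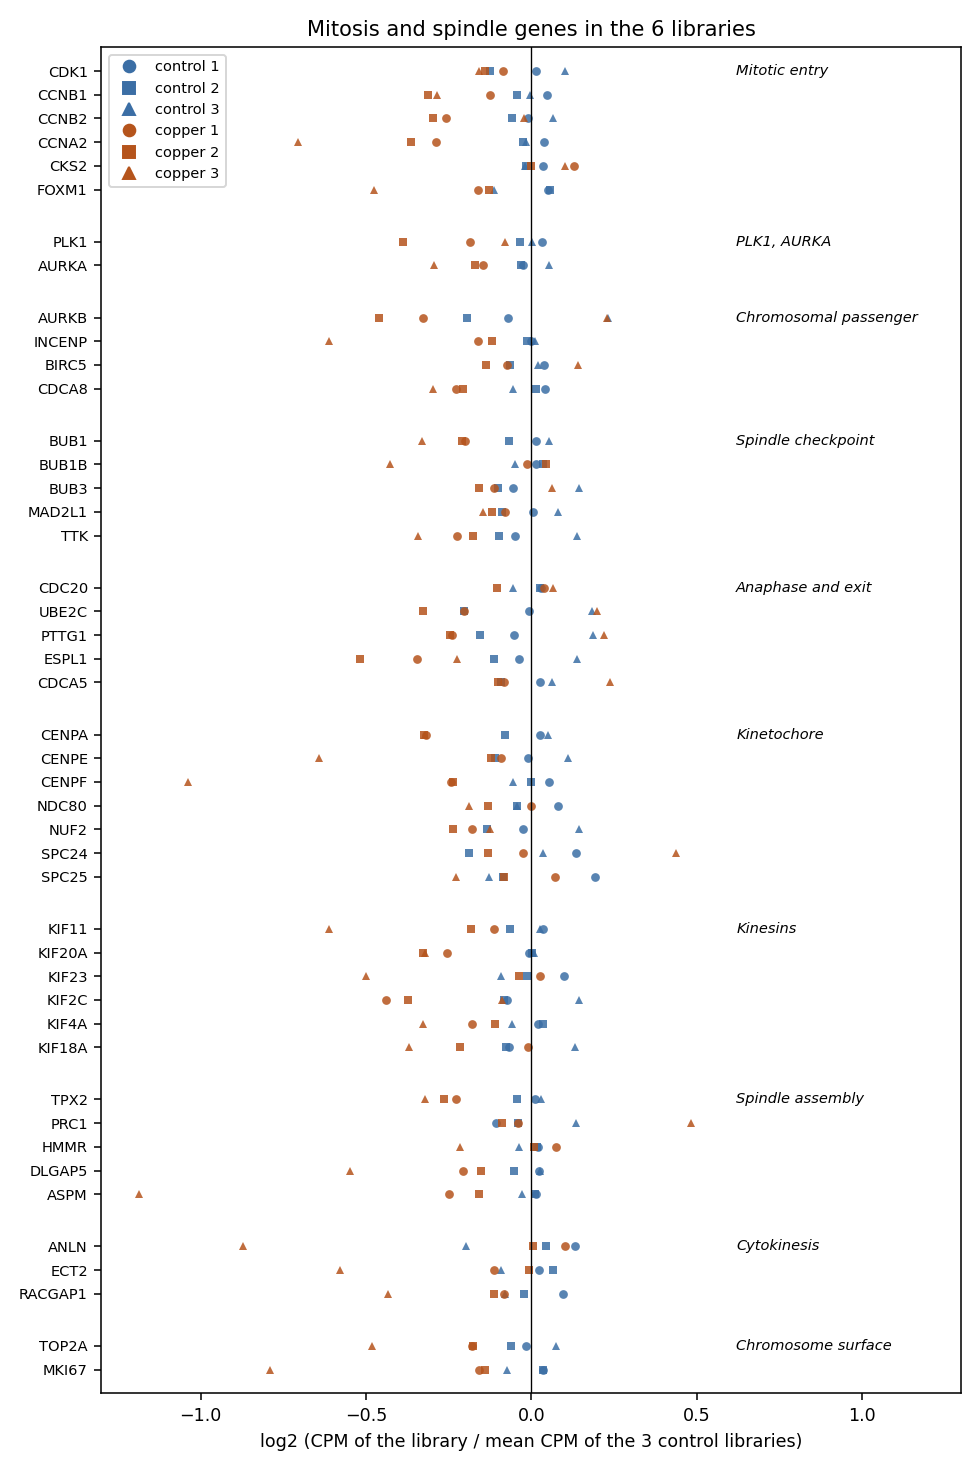
Level of each of the 45 tested genes in the 6 libraries, as the log2 ratio of the library's CPM to the mean of the 3 control libraries, with copper in orange and control in blue and a marker shape for each replicate number. Most copper points lie left of 0, and copper replicate 3 (triangles) lies farthest left for ASPM, CENPF and ANLN.

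No gene passed the test on its own. With edgeR's quasi-likelihood test and Benjamini-Hochberg adjustment over all 12944 genes, 0 of the 45 genes were called, and 0% of all genes were called in either direction. The smallest adjusted p among the 45 was 1.00. Before adjustment, 12 of the 45 had p under 0.05 with lower copper (1.59% of all genes) and 0 with higher copper (1.92% of all genes). DESeq2 called 0 of the 45 (0.0695% of all genes lower, smallest adjusted p 0.0864), with 14 under 0.05 before adjustment against 3.41% of all genes. limma-voom called 0 (0% of all genes), with 13 under 0.05 before adjustment against 3.58%. When the replicate number was added as a block, 0 of the 45 were called, with 0.0464% of all genes called lower and 0.124% higher, and the smallest adjusted p among the 45 was 0.216 (CCNA2). Without a filter on low counts, 0 were called (0.0132% of all genes lower, 0.0395% higher). The unadjusted count became 23 lower (4.24% of all genes) and 0 higher (4.16% of all genes) under the block.

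**Figure D3:**
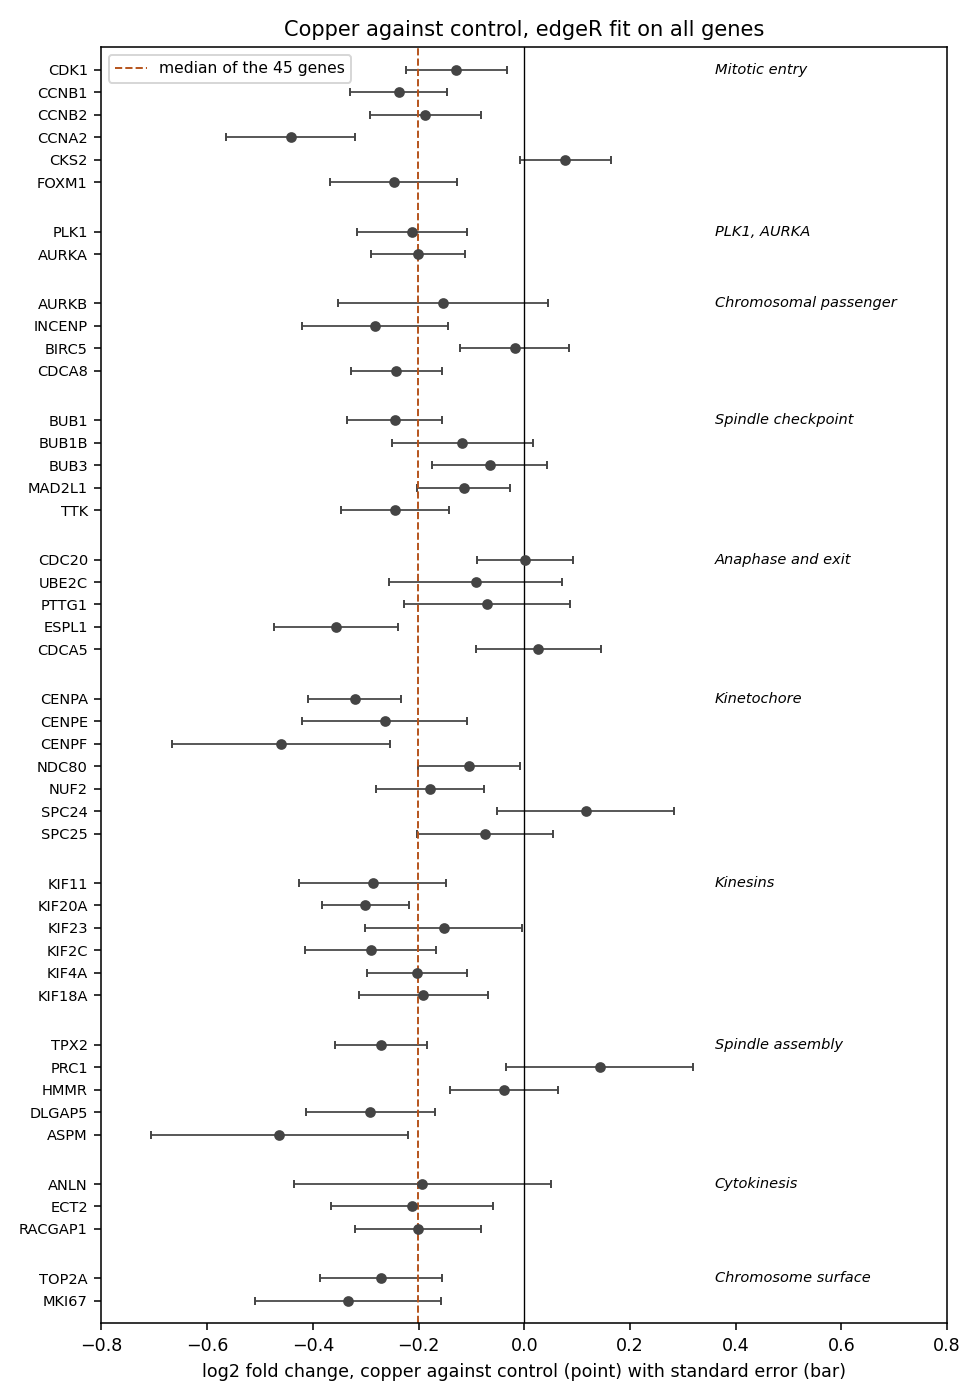
Log2 fold change of each of the 45 genes, copper against control (points), with its standard error (bars), from the edgeR fit on all genes. The dashed line is the median of the 45 genes, -0.20, and 5 points lie above 0.

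With replicates 1 and 2 of each group only, edgeR called 3 of the 45 genes lower in copper, against 0.355% of all genes, and 0 higher, against 0.501%. CCNA2 (log2 fold change -0.33, adjusted p 0.0225), KIF20A (-0.29, adjusted p 0.0411) and KIF2C (-0.33, adjusted p 0.0210) were the 3. With the replicate block as well, 19 of the 45 were called lower, against 4.16% of all genes, and 0 higher, against 2.88%, in a fit of 4 libraries that leaves a single residual degree of freedom. The median over the 45 genes was smaller in these 4 libraries, -0.14. In size, the log2 fold change of 20 genes was smaller by over 1.5 times in these 4 libraries than in all 6, that of 6 was larger by as much, and that of 19 was within it. AURKA (-0.20 to -0.13), CDK1 (-0.13 to -0.06), INCENP (-0.28 to -0.14), TTK (-0.25 to -0.13), CENPE (-0.26 to -0.05), KIF11 (-0.29 to -0.13), DLGAP5 (-0.29 to -0.17) and ECT2 (-0.21 to -0.10) were among the 20. With copper replicate 3 alone left out, edgeR called 0 of the 45 (0.0229% of all genes lower, 0.0916% higher), with a smallest adjusted p of 0.183 and a median of -0.15.

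Among the mitotic entry genes 5 of 6 tested were lower in copper, and the median log2 fold change was -0.21. In 3 of them the groups did not overlap (5.35% of all genes lay wholly lower). CDK1 (Entrez gene 983, chromosome 10, 60778331 to 60787069 in the deposited table), the kinase that drives entry, was at 302, 291 and 288 CPM in copper and 324, 294 and 345 CPM in control. Each of the copper values was under its same-numbered control, yet the groups overlapped between copper replicate 1 and control replicate 2, and the log2 fold change was -0.13 (SE 0.10, unadjusted p 0.216). CCNA2 (Entrez gene 890, chromosome 4, 121816444 to 121823883), cyclin A2, which partners CDK2 in replication and CDK1 at entry, was at 164, 156 and 123 CPM in copper and 206, 198 and 199 CPM in control. All 3 copper libraries were below all 3 controls, with a log2 fold change of -0.44 (SE 0.12, unadjusted p 0.00757), and copper replicate 3 was the lowest. CCNB1 and CCNB2, the B-type cyclins, had log2 fold changes of -0.24 and -0.19, and FOXM1, a transcription factor of these same genes, -0.25. CKS2, a small CDK-binding protein, was at 223, 204 and 218 CPM in copper and 209, 201 and 201 CPM in control, a log2 fold change of 0.08 that was -0.01 with the length trend of each library removed.

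CCNA2 shares 578 bases with EXOSC9 on the other strand, and the strand setting of the counting is not given in the sources used here. EXOSC9, an RNA exosome subunit, had a log2 fold change of -0.02. KIF20A likewise shares 71 bases with CDC23, whose log2 fold change was -0.07. In all, 8 of the 46 genes overlap another annotated gene, among them PRC1, which shares 22256 bases with PRC1-AS1. PTTG1 has near-identical intronless copies elsewhere in the genome, so its count is uncertain.

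The centrosome and spindle kinases PLK1 and AURKA were both lower without overlap (5.35% of all genes), with a median of -0.21. AURKA (Entrez gene 6790, chromosome 20, 56369390 to 56392215) was at 184, 181 and 166 CPM in copper and 200, 199 and 211 CPM in control, a log2 fold change of -0.20 (SE 0.09, unadjusted p 0.0539). PLK1 (chromosome 16, 23678889 to 23690367) was at 121, 105 and 130 CPM in copper and 140, 134 and 137 CPM in control. In PLK1 the highest copper value was that of replicate 3 and lay just under the lowest control.

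The chromosomal passenger complex, which places AURKB at centromeres and then at the midzone, was uneven. Its 4 genes had a median of -0.20, and 2 of them, CDCA8 and INCENP, were lower without overlap (5.35% of all genes). CDCA8 (borealin, Entrez gene 55143, chromosome 1, 37692516 to 37709719) was at 93.0, 94.4 and 88.6 CPM in copper and 112, 110 and 105 CPM in control, a log2 fold change of -0.24 (SE 0.09, unadjusted p 0.0232). BIRC5 (survivin, Entrez gene 332, chromosome 17, 78214253 to 78225635) was at 310, 296 and 359 CPM in copper and 335, 312 and 330 CPM in control. The BIRC5 groups overlapped, at a log2 fold change of -0.02 (SE 0.10, unadjusted p 0.864) that was 0.01 with upper-quartile or total-count scaling, and copper replicate 3 was its highest library. AURKB, the complex's kinase, was likewise highest in replicate 3 of both groups, at 117 CPM in copper and 118 CPM in control.

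Spindle checkpoint genes were all below 0 in fold change, 5 of 5 with a median of -0.12. In 2 of them, BUB1 and TTK, copper lay wholly below control (5.35% of all genes). BUB1 (Entrez gene 699, chromosome 2, 110637698 to 110678107), a kinetochore kinase, was at 211, 210 and 193 CPM in copper and 244, 231 and 251 CPM in control. The log2 fold change of BUB1 was -0.25 (SE 0.09, unadjusted p 0.0266). BUB3 (Entrez gene 9184, chromosome 10, 123154402 to 123170467), the adaptor that docks BUB1 at kinetochores, was at 267, 258 and 301 CPM in copper and 277, 268 and 319 CPM in control. In BUB3 replicate 3 was the highest of each group, the groups overlapped, and the log2 fold change was -0.07 (SE 0.11, unadjusted p 0.566). TTK, the kinase that starts checkpoint signalling, had -0.25, and MAD2L1 and BUB1B, parts of the inhibitor of the anaphase-promoting complex, had -0.11 and -0.12.

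Genes of anaphase and mitotic exit had the role median nearest 0, -0.07, with 3 of 5 below 0. That rank depended on the fit. With each library's length trend taken out and the replicate block, their median was -0.18, and the spindle checkpoint genes, at -0.11, were nearest 0. CDC20 (Entrez gene 991, chromosome 1, 43358981 to 43363202), the activator of the anaphase-promoting complex, was at 251, 228 and 256 CPM in copper and 250, 249 and 236 CPM in control. The CDC20 groups had the same mean, 245 CPM, and a log2 fold change of 0.00 (SE 0.09, unadjusted p 0.986), which was -0.000636 with RLE scaling. ESPL1 (separase, Entrez gene 9700, chromosome 12, 53268299 to 53293637), the protease that cuts cohesin, was at 39.5, 35.0 and 43.0 CPM in copper and 48.9, 46.4 and 55.2 CPM in control. ESPL1 was the 1 gene of these 5 without overlap (5.35% of all genes lay wholly lower), at -0.36 (SE 0.12, unadjusted p 0.0169). UBE2C, the ubiquitin-conjugating enzyme of the complex, had -0.09. PTTG1 (securin), which holds separase back, had -0.07, and CDCA5 (sororin), which protects cohesin, had 0.03.

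Kinetochore genes had a median of -0.18, with 6 of 7 below 0 and 2 (CENPA and CENPF) lower without overlap (5.35% of all genes). CENPA (Entrez gene 1058, chromosome 2, 26786015 to 26794587), the histone H3 variant that marks the centromere, was at 40.8, 40.6 and 40.6 CPM in copper and 51.7, 48.1 and 52.6 CPM in control. The copper libraries were nearly equal, and the log2 fold change was -0.32 (SE 0.09, unadjusted p 0.00712). CENPF (Entrez gene 1063, chromosome 1, 214603195 to 214664571), a large coiled-coil protein of the outer kinetochore, was at 599, 602 and 345 CPM in copper and 736, 709 and 682 CPM in control. Copper replicate 3 was far below its mates, and the CENPF log2 fold change of -0.46 (SE 0.21, unadjusted p 0.0586) was -0.27 with replicates 1 and 2 only. CENPE, a kinetochore motor, had -0.26. Of the NDC80 complex, which grips microtubule ends, NDC80, NUF2 and SPC25 had -0.10, -0.18 and -0.07 and SPC24 had 0.12, which was -0.08 without copper replicate 3.

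The mitotic kinesins were below 0 in 6 of 6 genes, with a median of -0.24 and 4 genes lower without overlap (5.35% of all genes). KIF20A (Entrez gene 10112, chromosome 5, 138179112 to 138187720), a midzone motor needed for cytokinesis, was at 206, 195 and 196 CPM in copper and 244, 246 and 247 CPM in control. Both groups were tight, and KIF20A had the smallest unadjusted p of the 45 genes, 0.00689, at a log2 fold change of -0.30 (SE 0.08). KIF2C, which depolymerises microtubules at centromeres, and KIF11, which pushes the spindle poles apart, both had -0.29. KIF4A, a chromosome-arm motor, had -0.20, KIF18A, which shortens kinetochore fibres, had -0.19, and KIF23, a central spindle motor, had -0.15.

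Spindle assembly genes had a median of -0.27, with 4 of 5 tested below 0 and 3 lower without overlap (5.35% of all genes). TPX2 (Entrez gene 22974, chromosome 20, 31739290 to 31801800), which activates AURKA and nucleates microtubules, was at 538, 525 and 505 CPM in copper and 636, 612 and 644 CPM in control. The log2 fold change of TPX2 was -0.27 (SE 0.09, unadjusted p 0.0153), with a wide gap between the groups. ASPM, which works at spindle poles, was at 351, 374 and 183 CPM in copper and 421, 421 and 409 CPM in control, so copper replicate 3 was far below its mates, and its log2 fold change of -0.46 was -0.22 with replicates 1 and 2 only. DLGAP5, which stabilises kinetochore fibres, had -0.29 and HMMR -0.04. PRC1, the midzone bundler, was at 14.0, 13.5 and 20.1 CPM in copper and 13.4, 14.0 and 15.8 CPM in control, the highest fold change of the 45 at 0.14 and -0.06 without copper replicate 3. NUSAP1 had 6, 7 and 5 counts in copper and 13, 7 and 14 in control.

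The 3 cytokinesis genes were below 0 with a median of -0.20. Groups did not overlap in 1 of them, RACGAP1 (5.35% of all genes lay wholly lower). ECT2, the exchange factor that activates RhoA at the cleavage furrow, had -0.21. ANLN (anillin, Entrez gene 54443, chromosome 7, 36389862 to 36453791), the scaffold of the contractile ring, was at 736, 688 and 375 CPM in copper and 751, 707 and 598 CPM in control. The log2 fold change of ANLN, -0.19 (SE 0.24, unadjusted p 0.451), was 0.05 without copper replicate 3. RACGAP1 (Entrez gene 29127, chromosome 12, 49989162 to 50025557), which forms centralspindlin with KIF23, was at 225, 220 and 177 CPM in copper and 255, 235 and 226 CPM in control. RACGAP1 had -0.20 (SE 0.12, unadjusted p 0.133), with copper replicate 1 just under control replicate 3.

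Of the last pair, TOP2A (Entrez gene 7153, chromosome 17, 40388525 to 40417896), the topoisomerase that untangles sister chromatids, was at 801, 802 and 650 CPM in copper and 897, 870 and 954 CPM in control. MKI67 (Entrez gene 4288, chromosome 10, 128096661 to 128126423), which encodes the Ki-67 surfactant of mitotic chromosomes, was at 878, 890 and 567 CPM in copper and 1005, 1004 and 932 CPM in control. Neither overlapped (5.35% of all genes lay wholly lower). Their log2 fold changes were -0.27 (SE 0.12, unadjusted p 0.0476) and -0.33 (SE 0.18, unadjusted p 0.0963). Both were lowest in copper replicate 3, and with replicates 1 and 2 only they had -0.14 and -0.19.

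Per length, the most abundant of the transcripts in control cells were CKS2 at 332 RPKM (CPM divided by the length in kilobases of the longest coding transcript), UBE2C at 274, TPX2 at 175 and CDK1 at 165. SD values over the 3 controls were 7.04, 36.8, 4.63 and 13.0 RPKM, so TPX2 and CDK1 lay within their spread of each other. PRC1 at 3.51 RPKM and ESPL1 at 7.57 RPKM were the lowest of the 45, and NUSAP1 was at 0.221 RPKM. How reads matching overlapping or similar genes were counted is not given, and its part in the low PRC1 and NUSAP1 values was not tested.

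The copper difference varied with the replicate number. The median of the 45 genes was -0.16 for number 1, -0.12 for number 2 and -0.33 for number 3, with all tested genes at 0.0018, 0.0066 and 0.0019. Copper was lower in 40, 41 and 37 of the 45 genes in numbers 1, 2 and 3. In 29 of the 45 genes number 3 gave the lowest of the 3 differences. Copper replicate 3 was below the mean of copper replicates 1 and 2 in 30 of 45 genes, with a median shift of -0.12 and a range from -0.98 (ASPM) to 0.62 (AURKB). In control the median shift of replicate 3 was 0.04, with 18 genes lower and 27 higher.

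Longer transcripts were shifted further down in copper replicate 3. Across the 45 genes the shift had a Pearson correlation of -0.59 with log10 transcript length (Spearman -0.59), and across 12439 genes with a length -0.40 (Spearman -0.45). In control replicate 3 these were -0.19 and -0.15 over the 45 genes and -0.15 and -0.19 over all. Genes share libraries and depth, so these values describe the libraries. The 23 genes at or above the median length of 3201 bases had a median difference of -0.41 in number 3, and the 22 shorter genes -0.12. In numbers 1 and 2 the long and short genes had -0.16 and -0.17, and -0.12 and -0.11. Taking out each library's length trend left the medians by number of these genes much as they were. Over the 45 genes they were -0.17, -0.12 and -0.34 in numbers 1, 2 and 3, against -0.16, -0.12 and -0.33 before. With each library's length trend taken out and the replicate block, the median of the 45 genes was -0.22, and edgeR called 0 of them (0.224% of all genes lower, 0.301% higher), with a smallest adjusted p of 0.0555 (CCNA2). Without the block, the length trend removed, 0 were called (0.00773% of all genes higher).

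**Figure D4:**
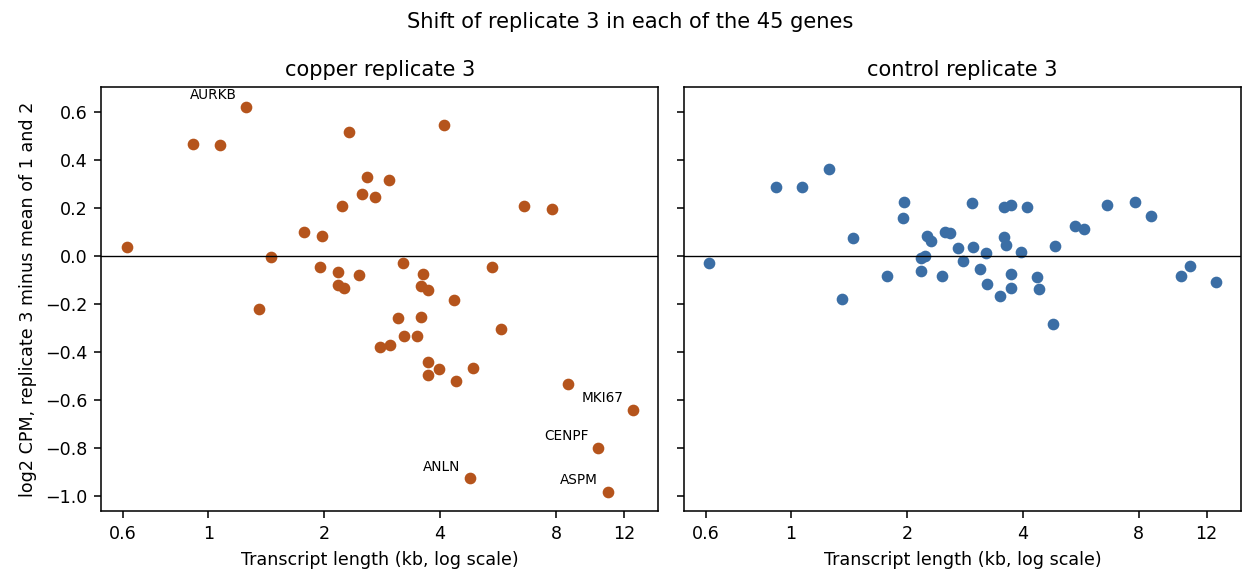
Shift of replicate 3 against the mean of replicates 1 and 2 on the log2 CPM scale (y axis) by transcript length (x axis, log scale) for the 45 genes, in copper (left) and control (right). In copper the points fall with length, from AURKB at 0.62 to ASPM at -0.98, while in control they stay between -0.28 and 0.36.

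Other cell division genes, on 5 lists of 99 genes in all, gave a median of -0.12 with 73 below 0, and 0 were called by edgeR (0% of all genes). By replicate number their median was -0.07, -0.02 and -0.29, so it was largest in number 3. The 23 other spindle and cytokinesis genes were all below 0, with a median of -0.23 and 12 without overlap (5.35% of all genes lay wholly lower). FAM83D, which recruits a kinase to the spindle, had the smallest p of that list, at 79.4, 70.7 and 64.3 CPM in copper and 92.8, 91.7 and 88.7 CPM in control (log2 fold change -0.35, SE 0.10, unadjusted p 0.0105). The 13 entry regulators had a median of -0.13 with 9 below 0. BORA, the activator of AURKA toward PLK1, was at 13.2, 13.2 and 12.1 CPM in copper and 18.8, 17.1 and 18.0 CPM in control. BORA had the largest difference of all these lists, -0.48 (SE 0.11, unadjusted p 0.00232), with an adjusted p of 0.804 in edgeR and 0.184 with the replicate block.

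The 30 other kinetochore and checkpoint genes were near even, with a median of -0.03 and 18 below 0, and CENPO had the smallest p at -0.24 (SE 0.09, unadjusted p 0.0289). Condensin and cohesin genes had a median of -0.14 with 15 of 16 below 0, and by number the medians were -0.05, 0.0027 and -0.41. With each library's length trend taken out, these were -0.05, -0.01 and -0.23. RAD21, the cohesin subunit cut by separase, had -0.34 (SE 0.12, unadjusted p 0.0183), and -0.23 with replicates 1 and 2 only. The 17 genes of the anaphase-promoting complex and its partners had a median of 0.02, with 8 below and 9 above 0, and ANAPC16 was at 0.19 (SE 0.10, unadjusted p 0.0914).

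The 38 DNA replication genes had a median of 0.05, with 25 above 0 and 13 below. In 3 of them, GINS3, RFC2 and ORC6, copper lay wholly above control (5.45% of all genes), and in 0 wholly below (5.35% of all genes). GINS3, a subunit of the replicative helicase, had the smallest p of that list, 0.32 on the log2 scale (SE 0.14, unadjusted p 0.0567). The difference between the replication list and the division genes was not tested.

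Of the 22 regulators of the MuvB, E2F and p53 circuit, 16 were below 0, with a median of -0.10 that was -0.03, -0.0004 and -0.24 by number. CDKN1A, the CDK inhibitor p21 that p53 induces, had the smallest p of the list, at 219, 208 and 212 CPM in copper and 165, 151 and 158 CPM in control. The 3 copper libraries were all higher, with a log2 fold change of 0.43 (SE 0.09, unadjusted p 0.00126). Its adjusted p was 0.710 in edgeR, 0.134 in edgeR with the replicate block and 0.00221 in DESeq2, where it was the 1 called gene of the 159 on these lists (0.139% of all genes were called higher). In edgeR, CDKN1A was also called with replicates 1 and 2 only (adjusted p 0.00956, 0.501% of all genes called higher). The block added there kept the call, with 1 residual degree of freedom (2.88% higher). With all 6 libraries, the length trend removed and the block, its adjusted p was 0.0460 (0.301% higher). It was not called when 1 library was left out.

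**Figure D5:**
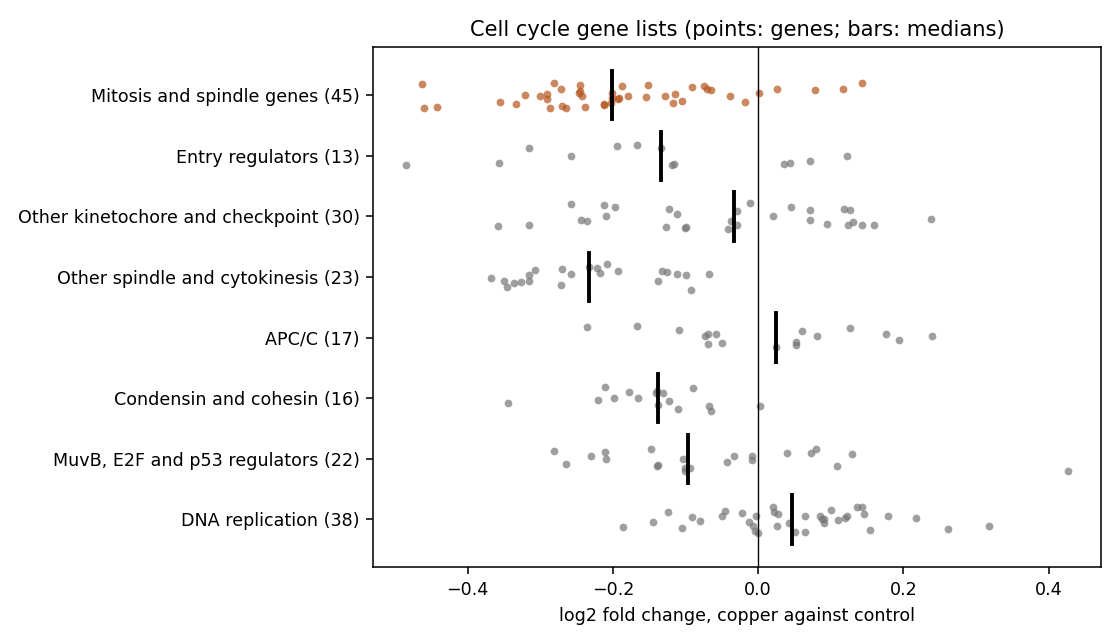
Log2 fold change, copper against control, of each gene (points) in the mitosis and spindle genes and 7 further cell cycle lists, with the median of each list as a bar and the number of tested genes in brackets. Medians run from -0.23 (other spindle and cytokinesis) to 0.05 (DNA replication), and the point at 0.43 is CDKN1A.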

How the data were processed

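The authors deposited raw gene counts for the 6 libraries, which were used as deposited. Library preparation was directional, per the labels' protocols. STAR, FastQC, edgeR and build GRCh38 are named in the submitters' processing notes, and the counting program and its strand setting are not given in the sources used here. Starts had 1 added. The 5 rows without a symbol (0.000814% of counts) were left out.

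The tests ran in edgeR 4.0.16 (R 4.3.3): filterByExpr (minimum count 10, minimum total 15), TMM scaling, a robust quasi-likelihood fit on group alone, and Benjamini-Hochberg adjustment over all 12944 tested genes at 0.05. The prior count was 2. CPM are counts scaled by TMM library size. Alternatives used DESeq2 1.42.0, limma 3.58.1, other scalings and filters, fewer libraries, and removal of length trends (a spline of 4 degrees of freedom, with GENCODE lengths known for 96.1% of tested genes). With 3 libraries per group, the biological coefficient of variation was 15.4%, and 9.05% with the block. The fits were also run on simulated counts with larger changes than those of the division genes and no shared replicate shift or length trend. That run does not show how they perform on differences of the size seen here.

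Both groups carry replicate numbers 1 to 3. Same-numbered libraries deviated together from their group means (correlation 0.46, 0.40 and 0.65 over genes), and the block takes the numbers as pairs. The labels state no pairing. Replicate 3 stood apart in both groups, which can by itself give such correlations. They therefore do not show that libraries numbered 1 or 2 are paired. The genes and lists were chosen with earlier results of these data known. Full values are given for the gene with the highest mean CPM and the gene with the smallest p in each role, and the gene with the smallest p of each other list is named. Other genes given in full were chosen after their values were seen.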

Additional observations from a re-analysis of the deposited data

How the results depend on the processing

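The median log2 fold change of the division genes stayed below 0 in all 18 alternatives, between -0.25 (without copper replicate 1) and -0.14 (replicates 1 and 2 only). With the replicate block it was -0.21, with 0 of 45 genes called. Without each library in turn the median ran from -0.252 to -0.148, and 0 division genes and 0 of the 159 genes on the other lists were called each time. Of all genes, 0.0229% were called lower and 0.0916% higher without copper replicate 3, and 0% when any other library was left out. The number of the 45 genes called was 3 with replicates 1 and 2 only, all lower (0.355% of all genes). It was 19 when the block was added to those 4 libraries, all lower (4.16% of all genes), in a fit with 1 residual degree of freedom. On the other lists 0 genes were called with all 6 libraries by edgeR and 1 by DESeq2, higher in copper (0.139% of all genes). There were 5 with replicates 1 and 2 only, 4 lower and 1 higher (0.355% and 0.501% of all genes). With the block added to those there were 30, 26 lower and 4 higher (4.16% and 2.88%), and with the length trend removed and the block 2, 1 each way (0.224% and 0.301%). The cause was not tested. The number with TTTGAA ranged from 24 (sense strand only) to 30 (TTCGAA also counted).

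Of 810 gene values over 18 alternatives, 748 kept their direction and side of the threshold, 22 passed it and 40 changed sign. CDC20 was -0.000692 in DESeq2, -0.000636 with RLE scaling, -0.0187 without a filter, -0.0600 with replicates 1 and 2 only, -0.0609 with the block added, and -0.0681 with the length trend removed, with or without the block. BIRC5 was 0.00744 with upper-quartile and 0.00982 with total-count scaling. With replicates 1 and 2 only, then with the block added, CDCA5 was -0.0617 and -0.0602, SPC24 -0.0626 and -0.0546, and HMMR 0.0235 in both. With the length trend removed, then with the block, CKS2 was -0.0149 and -0.0222, BUB3 0.0296 and 0.0154, and CDCA5 -0.0070 and -0.0091. Leaving out 1 library at a time gave -0.370 to 0.0547 for ANLN, -0.105 to 0.0333 for BIRC5, -0.209 to 0.0157 for BUB1B, -0.134 to 0.0120 for BUB3, -0.0323 to 0.0476 for CDC20, -0.0923 to 0.0817 for CDCA5, -0.101 to 0.0419 for HMMR, -0.0625 to 0.241 for PRC1, -0.242 to 0.0308 for PTTG1, -0.0776 to 0.221 for SPC24, -0.155 to 0.0284 for SPC25 and -0.264 to 0.0093 for UBE2C. ANLN, BUB1B, HMMR, PRC1 and SPC24 changed sign when copper replicate 3 was left out and for no other library, BUB3 when control replicate 3 was, and SPC25 when control replicate 1 was. Low counts kept NUSAP1 from being tested, and PRC1 had the lowest copper mean of the 45, at 15.8 CPM.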

Other observations

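TTTGAA on either strand was found in the RefSeq windows of 13 of 20 other spindle and cytokinesis genes, 7 of 11 entry regulators, 8 of 14 condensin and cohesin genes and 9 of 24 other kinetochore and checkpoint genes. It was found in 6 of 18 MuvB, E2F and p53 regulators and in 5 of 17 genes of the anaphase-promoting complex list. Among DNA replication genes it was found in 1 of 33 (3.03%), below the 18.2% of all genes with a window, while CCAAT stood in 21 of those 33 (63.6%, against 39.7% of all). In the other spindle and cytokinesis list only 4 of the 13 genes with TTTGAA had it on the sense strand, against 24 of 28 division genes. These are counts of letters, with no test.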
